A study of Mus musculus with 16 samples.

Results

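The promoters described here belong to olfactory receptor genes of mouse chromosome 2, read by Promoter Capture Hi-C in liver. A bait was counted as a member where a protein-coding gene of chromosome 2 starts on its fragment in GENCODE vM1 (mm9) and the gene's symbol is Olfr followed by a number. Its pairs were those of the deposited lists with an end on it. Of 282 such genes, 145 started on a listed bait, on 144 fragments (1 fragment held both Olfr1256 and Olfr48), of 18165 listed baits in all. These baits gave 734 distinct pairs of 247177. The other 137 genes started on fragments that no list held as a bait; 36 of these genes started on a fragment listed as the other end of some pair. Whether the remaining starts were never probed or were probed without a listed pair could not be told from the lists, so each member had at least 1 contact by construction.

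Livers came from male wild type C57BL/6 mice, labelled as 8 weeks old. Per the methods, the mice spent 2 weeks from that age in alternating light and dark of 12 h with food ad libitum. Livers were taken at zeitgeber times ZT0, ZT6, ZT12 and ZT18. There was no treatment or mutant, and by their labels the 4 groups differed in the time of day alone. Each group also had its own livers and libraries. Each timepoint had 3 pools of 2 livers, 1 of them sequenced on a further lane, and the authors merged the pools into 1 list per timepoint. A timepoint was therefore a single value without replicate error, no test between timepoints was possible, and intervals given here are 95% intervals for counting error only, although pairs on the same bait are not independent. The lists held 146262, 154775, 151529 and 151347 pairs in the order of the timepoints. Whole liver holds several cell types, and a pair cannot be given to any of them.

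Olfactory receptor genes encode G protein-coupled receptors by which sensory neurons of the nose detect odorants. They form the largest gene family of the mouse, arranged in clusters of tandem copies, usually with the coding region in a single exon. Each sensory neuron expresses a single receptor allele while the others are kept in heterochromatin, and clusters and distant enhancers gather in the nucleus of that neuron. In hepatocytes these genes are known as silent, but Capture Hi-C measures contacts and no RNA, so their expression was not checked here. In this assay chromatin is cut with HindIII and re-ligated inside the nucleus, fragments with a promoter are pulled out by RNA probes of 120 bases at both fragment ends, and each pair is scored against the number of reads its distance would give by CHiCAGO. A pair was listed from a score of 5, a higher score meaning more reads than that background.

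The sequences the results turn on are the starts of the coding regions of 5 receptors with many contacts in the same stretch of chromosome 2, shown because they are copies of the same kind of gene. In the annotation, 178 of the 282 gene starts, and 88 of the 145 on a listed bait, lay within 3 bp of the start codon, so a start here is often that of the coding region and not of transcription. Each line gives the first 60 coding bases in mm9, read 5′ to 3′ on the gene's strand, with capitals where the base differs from Olfr1052 at the same place without gaps.
Olfr1052, chr2:86137975-86138034, plus strand: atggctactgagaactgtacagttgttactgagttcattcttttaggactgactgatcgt
Olfr1054, chr2:86173452-86173511, minus strand: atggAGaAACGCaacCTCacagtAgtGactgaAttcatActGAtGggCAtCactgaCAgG
Olfr1056, chr2:86196478-86196537, minus strand: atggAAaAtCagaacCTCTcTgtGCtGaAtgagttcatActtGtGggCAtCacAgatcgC
Olfr1012, chr2:85600472-85600531, minus strand: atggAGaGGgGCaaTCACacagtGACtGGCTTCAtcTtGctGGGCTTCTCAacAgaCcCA
Olfr1014, chr2:85616743-85616802, plus strand: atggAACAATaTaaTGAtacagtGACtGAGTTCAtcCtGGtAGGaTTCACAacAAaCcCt
Against Olfr1052, 23 bases differed in Olfr1054 and 21 in Olfr1056, its neighbours, while 36 differed in each of Olfr1012 and Olfr1014, more than 500 kb away. Without gaps, a gain or loss of bases shifts all that follows and raises such a count. In Olfr1014 a run of bases of Olfr1052 is present but shifted. The counts therefore do not measure how far the copies have diverged, and the near and far copies cannot be compared by them.

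Because probes hybridise to fragment ends, the ends of the Olfr1052 bait (chr2:86137514-86138739, 1226 bp), which had the most contacts, are shown with the HindIII site in capitals. These are the ends of the fragment in the genome, not the probes themselves.
Olfr1052 bait, left end, chr2:86137513-86137632, plus strand: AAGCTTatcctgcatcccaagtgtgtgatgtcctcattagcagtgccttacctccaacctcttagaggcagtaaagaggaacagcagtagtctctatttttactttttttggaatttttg
Olfr1052 bait, right end, chr2:86138625-86138744, plus strand: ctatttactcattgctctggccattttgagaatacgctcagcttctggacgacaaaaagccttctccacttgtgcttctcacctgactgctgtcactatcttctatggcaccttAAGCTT
Copies can draw reads to the wrong fragment. The ends of each pair were aligned to each other only. Likeness of an end to fragments outside its pair was not searched, so reads drawn from those are not covered. Of the 734 pairs, 28 shared any stretch of at least 90% identity, the longest of 136 bp, and none shared such a stretch over 50% of the shorter fragment. At 80% identity, 125 of the 364 pairs between Olfr baits shared a stretch and 2 shared it over 50% of the shorter fragment. None of the pairs of highest score named below shared a stretch of 90% identity.

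The member genes lay in 3 clusters, split where neighbouring starts were more than 1 Mb apart. The proximal cluster (starts from chr2:36232298 to 37187269) held 27 genes, of which 22 were on a listed bait. The central cluster (85179452 to 90122730) held 218 genes, of which 108 were on 107 baits. The distal cluster (111071994 to 111996055) held 37 genes and 15 baits. Few other protein-coding genes started inside them: Olfr364-ps1 in the proximal cluster, 7 in the central cluster including Pramel6 and Pramel7, and none in the distal cluster.

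Most listed pairs of Olfr promoters stayed inside their own cluster. Of the 734 pairs, 709 (96.6%, Wilson interval 95.0 to 97.7) had both ends inside the same cluster. The clusters spanned 0.955, 4.94 and 0.924 Mb, and pairs of 500 kb or more made up 7.87% of all listed pairs. No such share was taken for other baits in stretches of like length, so the 96.6% cannot be called particular to Olfr promoters. The remaining 25 pairs reached chromosome 2 outside the clusters, and none joined clusters or chromosomes. A count of 0 of 734 allows a share of up to 0.409%. That does not set these baits apart from others, since 0.0801% of all pairs joined chromosomes. Nearly every second pair joined Olfr baits to each other: 364 pairs, or 49.6% (46.0 to 53.2), against 24.2% (22.5 to 26.0) for the 2408 pairs of the 441 Olfr baits of other chromosomes. Other protein-coding baits of chromosome 2 joined each other in 13.3% (12.8 to 13.9) of 13933 pairs. These shares do not allow for how many baits of the same set lie within reach, which is taken up below. Non-bait fragments of the same cluster made up 317 Olfr pairs and other baits of the same cluster 28. The clusters differed in this: 311 of 586 central pairs (53.1%) and 49 of 107 proximal pairs (45.8%) joined Olfr baits, but only 4 of 41 distal pairs (9.76%), where 29 ended on non-bait fragments of the cluster.

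Olfr pairs were long. Their median distance between fragment midpoints was 307 kb (269 to 342), against 208 kb (196 to 218) for Olfr baits elsewhere, 180 kb (161 to 198) for 36 baits of vomeronasal receptors (another receptor family in tandem clusters) and 155 kb (152 to 159) for other protein-coding baits of chromosome 2. Pairs of 500 kb or more made up 27.9% of Olfr pairs and 5.68% of the pairs of those other chromosome 2 baits. The distance profile was also flatter when all possible pairs of member baits were counted. Of 831 possible Olfr pairs 500 to 1000 kb apart, 72 were listed (8.66%, 6.94 to 10.8), against 129 of 5726 (2.25%, 1.90 to 2.67) between other protein-coding baits of chromosome 2 and 60 of 1522 (3.94%, 3.07 to 5.04) between Olfr baits elsewhere. Under 50 kb, 46 of 183 possible Olfr pairs were listed (25.1%, 19.4 to 31.9). That was less than for other protein-coding baits (36.4%, 33.1 to 39.9) and for Olfr baits elsewhere (36.6%, 32.2 to 41.3). At 50 to 150 kb, 63 of 361 were listed (17.5%, 13.9 to 21.7), less than the 620 of 1600 (38.8%, 36.4 to 41.2) of other protein-coding baits and much like the 134 of 754 (17.8%, 15.2 to 20.7) of Olfr baits elsewhere. At 150 to 500 kb the share was 17.9% (15.6 to 20.4), with 16.6% (15.6 to 17.7) for other protein-coding baits and 228 of 1834 (12.4%, upper bound 14.02) for Olfr baits elsewhere.

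Contacts were spread unevenly among the receptors. The median bait had 5 distinct contacts over the 4 lists, with quartiles of 2 and 10, while the median over all baits was 9 and that of Olfr baits elsewhere 4. A single contact was listed for 23 of the 144 baits (16.0%, against 8.87% of all baits), and 20 or more for 13 (9.03%, against 26.5% of all baits). The 10 baits with most contacts had an end in 299 of the 734 pairs (40.7%). They were Olfr1052, Olfr1054, Olfr1012, Olfr1014, Olfr1056, Olfr1153, Olfr1029, Olfr32, Olfr354 and Olfr1031, and each encodes an odorant receptor.

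**Figure D1:**
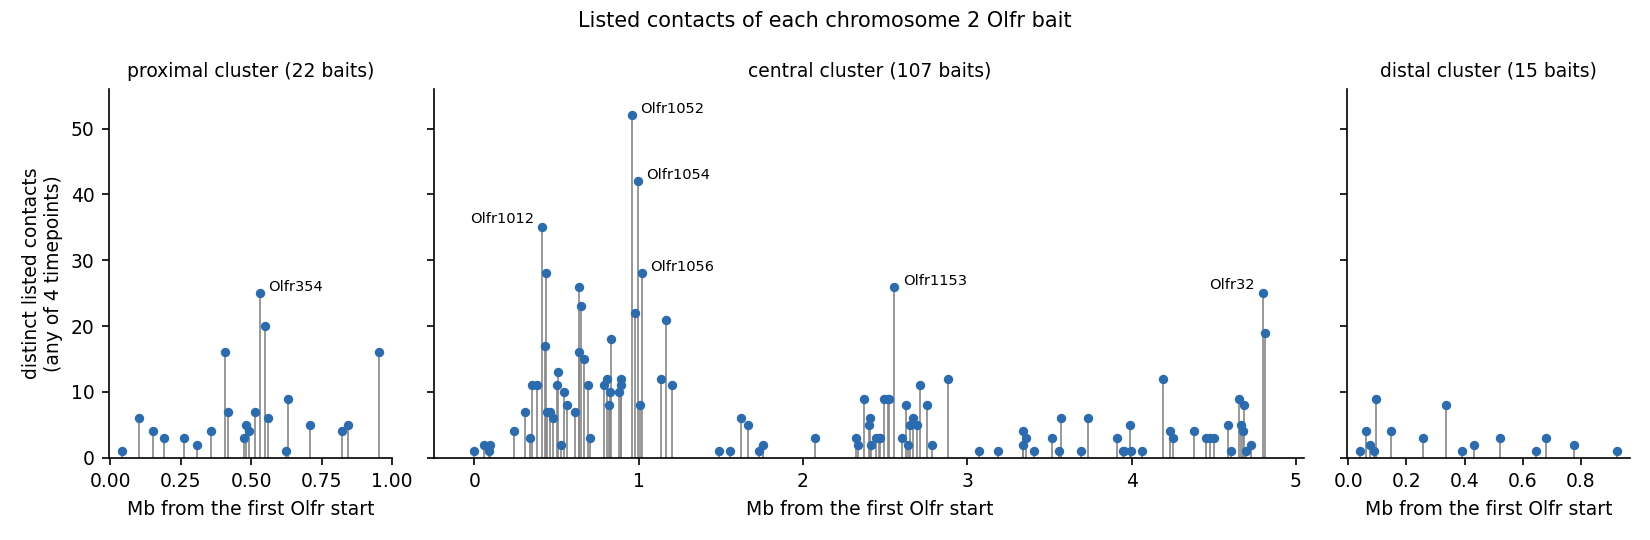
Number of distinct listed contacts of each Olfr bait over the 4 lists (vertical axis) by its position in Mb from the first Olfr start of its cluster (horizontal axis), with a point per bait. Olfr1052 stands highest at 52 contacts, and most baits with over 20 lie in the first 1.2 Mb of the central cluster.

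The Olfr1052 bait had 52 distinct contacts, more than 94.7% of all baits. It had 35, 37, 34 and 31 in the lists from ZT0 to ZT18, with 18 listed at all 4 timepoints. Of these contacts 30 were other Olfr baits and 20 non-bait fragments, at a median distance of 464 kb. Its neighbour Olfr1054 had 42 contacts, 28 at ZT0 and 28 at ZT6, then 21 at ZT12 and 20 at ZT18. Olfr1056, on the far side of Olfr1054, had 28, with 18, 14, 9 and 7 in the lists from ZT0 to ZT18. Both were lower at ZT12 and ZT18 than at ZT0 and ZT6, whereas Olfr1052 kept between 31 and 37.

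On the other side of the same stretch, Olfr1012 had 35 contacts, with 20 at ZT0 and 21 at ZT6, then 18 at ZT12 and 17 at ZT18. Its fragment of 12268 bp also holds the start of the pseudogene Olfr1010. Olfr1014, next to it, had 28, with 15, 19, 8 and 8 in the lists from ZT0 to ZT18. Between these groups lay Olfr1029 with 26 contacts (11, 17, 14 and 9 in the order of the timepoints) and Olfr1031 with 23 (10, 10, 10 and 7).

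Elsewhere the baits with most contacts were fewer. Olfr1153 had 26 contacts (15 at ZT0 and 20 at ZT6, then 9 at ZT12 and 13 at ZT18). Near the end of the central cluster, Olfr32 had 25 (14, 9, 11 and 15 in the same order), up to 1614 kb away, the longest distance between member baits. Olfr354 of the proximal cluster had 25, but unevenly over the day, with 21 at ZT0 and 8, 7 and 10 afterwards. Of the baits at the cluster edges, Olfr339, Olfr987, Olfr1277 and Olfr1318 had 1 contact each. Olfr1270, the last of the central baits, had 19, and Olfr368, the last of the proximal baits, had 16.

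The long contacts of the central cluster joined separate patches. When the cluster was divided into bins of 50 kb from its first start, the 586 central pairs fell into 223 pairs of bins, and 9 of these held 10 or more pairs. Of those 9, 8 joined bins at least 300 kb apart. Most pairs, 34, joined chr2:85579452-85629451, with Olfr1012, Olfr1013, Olfr1014 and Olfr1015, to chr2:86129452-86179451, with Olfr1052, Olfr1053 and Olfr1054. Of these 34 pairs 16 were listed at ZT0 and 21 at ZT6, against 15 at ZT12 and 13 at ZT18, on 10 fragments of one bin and 9 of the other. The same Olfr1052 bin received 18 pairs from the bin just before (Olfr1008 and Olfr1009), 17 from the bin with Olfr1019, Olfr1020, Olfr1022 and Olfr1023, and 13 from the bin with Olfr1016 and Olfr1018.

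**Figure D2:**
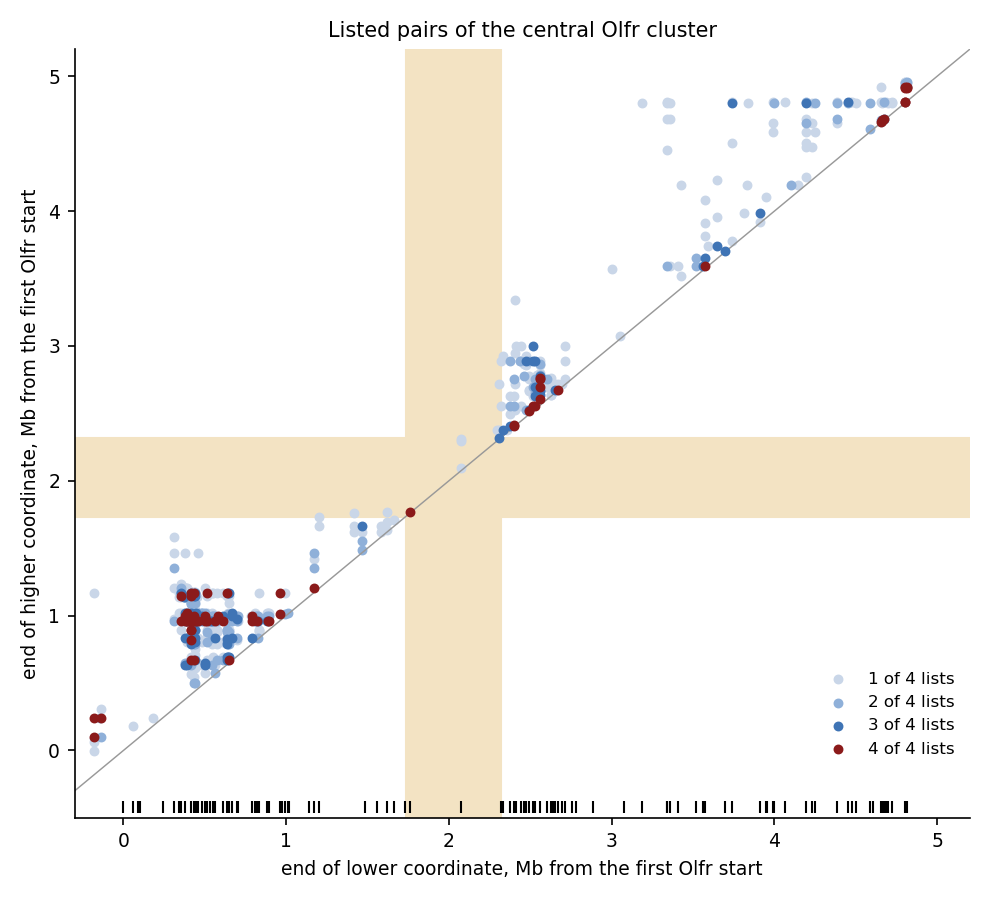
Each point is a listed pair of the central cluster, placed by the midpoints of its ends in Mb from the first Olfr start (lower coordinate on the horizontal axis, higher on the vertical axis) and coloured by the number of lists that held it. Ticks mark Olfr baits and the shaded bands the 586 kb that no listed pair spans; pairs form a dense patch near 0.4 and 1 Mb and a further group from 2.3 Mb on.

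Pairs between Olfr baits linked the members into 4 groups and left 30 baits with no Olfr partner. The proximal group joined 21 baits from Olfr339 to Olfr368 by 49 pairs. The distal group held 4 baits from Olfr1278 to Olfr1284, joined by 4 pairs. The central cluster split into a group of 40 baits from Olfr1002 to Olfr1107 (chr2:85486198-86912657), with 206 of 780 possible pairs listed (26.4%), and a group of 49 baits from Olfr1134 to Olfr1270 (chr2:87498250-89993337), with 105 of 1176 (8.93%). No listed pair, with or without an Olfr bait, spanned the 586 kb between them. That stretch held 21 Olfr starts but 2 listed Olfr baits, with 5 contacts. Across it 35 pairs of grouped baits lay 500 to 1000 kb apart, and 0 were listed. That 0 was fixed in advance, since a listed pair across the stretch would have joined the groups into one. Inside the groups, which the listed pairs themselves define, 67 of 343 at that distance were listed. The contrast of these counts is therefore no support for a boundary.

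These groups exist only in the union of the 4 lists: single lists gave 5, 6, 8 and 6 groups from ZT0 to ZT18, the largest of 40, 37, 34 and 36 baits, and left 44, 50, 61 and 53 baits alone. Of the 206 pairs of the first central group, 117 and 129 were listed at ZT0 and ZT6, and 100 and 89 at ZT12 and ZT18. The second group had 48, 59, 38 and 44 of its 105 pairs from ZT0 to ZT18, and the proximal group 32, 21, 13 and 24 of 49. At all 4 timepoints 31, 12 and 7 pairs of these groups were listed.

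The highest scores belonged to close neighbours. Olfr355 and Olfr356, 11.2 kb apart in the proximal cluster, scored 56.86, 35.35, 17 and 34.43 in the lists from ZT0 to ZT18. Olfr32 and the bait of Gm4222, a predicted gene 8.65 kb away, scored 39.19, 35.35, 26.91 and 41.81. The lowest of the 4 scores fell at ZT12 in both. In the distal cluster, Olfr1278 and Olfr1281, 35.6 kb apart, scored 19.28, 16.4, 21.33 and 16.32. Olfr1152 and Olfr1153, 29.7 kb apart, scored 14.28, 14.49, 12.98 and 16.41.

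High scores also joined distant receptors. Olfr1012 and Olfr1076, 754 kb apart, scored 14.49 at ZT0 and 18 at ZT6, then 13.7 at ZT12 and 10.61 at ZT18. Olfr347 and Olfr368, 596 kb apart in the proximal cluster, scored 14.84, 22.83, 8.29 and 8.15. Both pairs had their highest score at ZT6 and their lowest at ZT18. With non-bait fragments, Olfr1209 scored 11.4, 13.93, 15.9 and 18.8 with chr2:88769343-88774270, 20.9 kb away, which overlaps exons of Olfr1211 and Gm13763. Olfr1270 scored 14.73, 8.51, 18.15 and 12.25 with a fragment 101 kb away. Olfr1109 scored 9.19, 8.35, 12.45 and 12.03 with a fragment 12.4 kb away. Olfr1008 scored 8.41, 15.25, 9.21 and 9.14 with a fragment 796 kb away.

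Some fragments were shared as partners by several receptors. In all, 169 fragments other than the member baits were partners, and 40 of them were contacted by 3 or more member baits. The non-bait fragment chr2:85569425-85570848, which overlaps no annotated gene, was paired with 11 Olfr baits, among them Olfr1052, Olfr1054 and Olfr1056. It had 6 of them at ZT0, 9 at ZT6 and 5 at each later timepoint, and with Olfr1052 it scored 10.36, 8.47, 7.9 and 12.56. Its left end is shown as the partner shared by most members, with the HindIII site in capitals.
Shared fragment, left end, chr2:85569424-85569543, plus strand: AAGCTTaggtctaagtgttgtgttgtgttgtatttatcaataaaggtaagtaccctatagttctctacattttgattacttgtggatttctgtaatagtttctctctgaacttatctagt
In the distal cluster a fragment that overlaps Olfr1309 (chr2:111822396-111830261) was also paired with 11 Olfr baits, from Olfr1280 to Olfr1310. Among other protein-coding genes, the bait of Olfr1025-ps1, annotated as protein-coding though named as a receptor pseudogene, had 10 contacts and all were Olfr baits. Those of 4930430A15Rik and Olfr364-ps1 were paired with 4 Olfr baits each and that of Gm4222 with 3. A bait with a U2 small nuclear RNA start was paired with 9.

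The 25 pairs that left the clusters mostly stayed near them. A bait 178 kb before the central cluster, with the starts of Gm13712 and Gm13713 (chr2:84995225-85001243), was paired with 6 Olfr baits. Its pair with Olfr996, 423 kb away, scored 10.79, 13.34, 16.16 and 16.9 from ZT0 to ZT18. Olfr996 was paired with the bait of Gm13716 at 8.44, 6.95, 13.4 and 9.74 and, at ZT6 and ZT12, with that of Lrrc55. In the distal cluster, Olfr1281 was paired with the bait of 4930430A15Rik, 100 kb away, at 12.1, 9.9, 6.6 and 11.11. The longest such pair was that of Olfr1076 with the Gm13712 and Gm13713 bait, 1351 kb, listed at ZT12 alone. The end farthest beyond a cluster edge was the bait of Ryr3, a calcium release channel gene, 1061 kb from Olfr1318 and listed at ZT0 alone with a score of 5.27.

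The number of Olfr pairs differed between the lists. ZT0 had 368 pairs, ZT6 395, ZT12 279 and ZT18 290. Per 1000 listed pairs these were 2.52 (2.27 to 2.79), 2.55 (2.31 to 2.82), 1.84 (1.63 to 2.07) and 1.92 (1.70 to 2.15), so that ZT0 and ZT6 lay together above ZT12 and ZT18 and the intervals of these pairs of lists did not overlap. Olfr baits elsewhere had 8.46, 8.32, 7.46 and 7.90 pairs per 1000, vomeronasal receptor baits 0.779, 0.943, 0.667 and 0.753, and other protein-coding baits of chromosome 2 57.3, 55.3, 56.4 and 56.1. Short Olfr pairs were nearly equal in number, with 67, 65, 68 and 68 under 50 kb. At 150 to 500 kb there were 144, 169, 100 and 101, and at 500 kb or more 105, 103, 71 and 71. Over 150 kb, the ZT12 and ZT18 lists together had 0.654 times (0.569 to 0.751) the Olfr pairs per listed pair of the ZT0 and ZT6 lists, with 343 against 521, but 1.03 times in the order of lists of the study's summary, described below. Lower values were not limited to these baits. At 150 to 500 kb the ratio was 0.638 (0.532 to 0.764) for chromosome 2 Olfr baits, 0.858 (0.783 to 0.939) for Olfr baits elsewhere and 0.813 (0.627 to 1.05) for vomeronasal receptor baits, and of these the interval of Olfr baits elsewhere lay above that of chromosome 2 Olfr baits. At 500 kb or more it was 0.679 (0.544 to 0.844), against 0.812 (0.692 to 0.952) for Olfr baits elsewhere and 0.865 (0.778 to 0.962) for other protein-coding baits of chromosome 2, with overlapping intervals. In each cluster the sum was lower at ZT12 and ZT18, with 308 against 454 in the central, 25 against 48 in the proximal and 9 against 19 in the distal cluster. These sums place pairs by fragment midpoints. They leave out a ZT18 pair of Olfr987, whose bait has its midpoint just before the first central start.

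**Figure D3:**
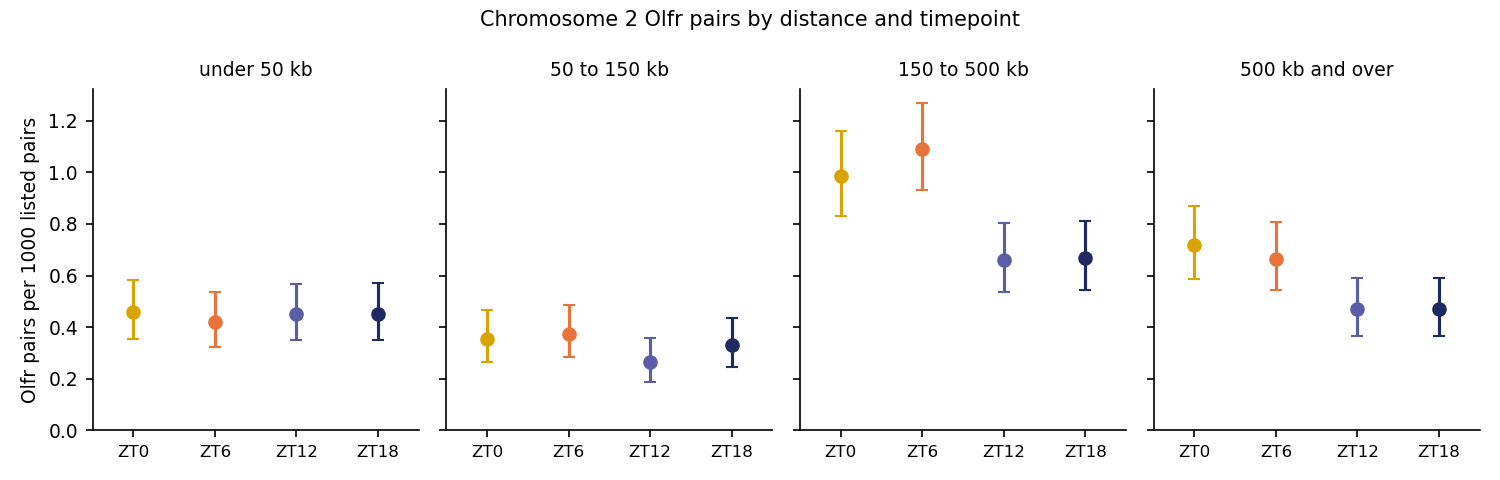
Olfr pairs per 1000 listed pairs at each timepoint, in 4 panels by the distance between the ends; bars are exact 95% Poisson intervals. Under 50 kb the 4 timepoints lie close together, and from 150 kb on ZT0 and ZT6 lie above ZT12 and ZT18.

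The base composition of the baits moved with this difference. Olfr baits had a median GC content of 35.8%, against 47.2% for all baits and 38.8% for Olfr baits elsewhere. Among baits of no receptor gene, the same ratio of ZT12 and ZT18 to ZT0 and ZT6 over 150 kb was 0.730 (0.633 to 0.842) for baits of 30 to 35% GC. It was 0.867 (0.840 to 0.895) at 35 to 40% and 0.902 (0.889 to 0.915) at 40 to 45%, and rose to 1.05 (1.02 to 1.07) at 55 to 60%. In the same classes, chromosome 2 Olfr baits had ratios of 0.620 (0.516 to 0.743) at 30 to 35% and 0.691 (0.583 to 0.819) at 35 to 40%, and the 5 baits at 40 to 45% had 1.03 (0.580 to 1.84). Olfr baits elsewhere had 0.789 (0.620 to 1.00) and 0.879 (0.778 to 0.992) in the first 2 of these classes. The chromosome 2 Olfr interval overlapped that of the baits of no receptor gene at 30 to 35%, lay below it at 35 to 40%, and overlapped that of Olfr baits elsewhere in both. The part of base composition in the Olfr result was not tested, and since each timepoint was 1 merged list, time of day and differences between libraries cannot be told apart. The summary in the study gives the list totals in another order, in which the lists labelled ZT6, ZT12 and ZT18 would be ZT18, ZT6 and ZT12. By that order the lists with more Olfr pairs would be ZT0 and ZT18.

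**Figure D4:**
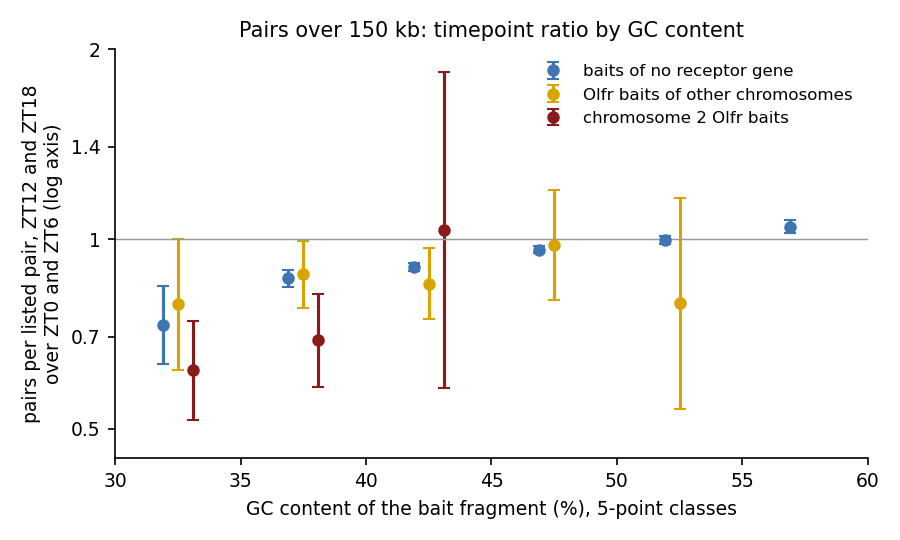
Ratio of pairs per listed pair at ZT12 and ZT18 to that at ZT0 and ZT6 (log axis), for pairs over 150 kb, by GC content of the bait in classes of 5 percentage points; bars are exact 95% intervals for counting error. The ratio of baits of no receptor gene falls from 1.05 at 55 to 60% GC to 0.730 at 30 to 35%, and chromosome 2 Olfr baits lie lowest in the classes from 30 to 40%.

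Counts for single baits come from the same pairs as the sums above, and a pair between Olfr baits counts for both. They describe how the difference was spread over baits and are no separate support for it. More contacts per listed pair at ZT0 and ZT6 than at ZT12 and ZT18 were found for 108 of 144 Olfr baits (75%), where 55.4% of all baits did so, 63.9% of Olfr baits elsewhere and 83.3% of the 36 vomeronasal receptor baits. These shares include ties. The ZT12 and ZT18 lists held 302876 pairs and the others 301037, so a bait with equal contacts in both sums counted as higher at ZT0 and ZT6. Olfr1023, with 2 and 4 contacts against 3 and 3, is an example. Such ties weigh most where baits have few contacts. Of 31 Olfr baits with at least 10 contacts over ZT0 and ZT12, 7 were at least 2-fold higher at ZT0 relative to the list totals (3.16% of all such baits were) and 0 at ZT12 (3.26%). Of 36 over ZT6 and ZT18, 7 were higher at ZT6 (2.97% of all) and 0 at ZT18 (3.7%). Olfr354 had 21 contacts at ZT0 and 7 at ZT12, a ratio of 3.11, and Olfr1137 had 7 and 3, a ratio of 2.42. The other 5, all at a ratio of 2.07, were Olfr348, Olfr1008, Olfr1030, Olfr1056 and Olfr1270. Olfr1162 had 11 contacts at ZT6 and none at the other 3 timepoints, and Olfr1170 and Olfr1079 had 8 at ZT6 and 2 at ZT18. By the study's order of lists these calls changed, to 4 higher at ZT0 than ZT12, 0 higher at ZT6 and 5 higher at ZT18. The share over all baits was not taken in that order.

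Few Olfr pairs recurred through the day. At all 4 timepoints 87 of 734 were listed (11.9%, 9.71 to 14.4), and 402 (54.8%) were in a single list. Olfr baits elsewhere kept 18.9% (17.4 to 20.6) and other protein-coding baits of chromosome 2 kept 32.6% (31.8 to 33.4). Olfr pairs also had lower scores, as 8.58% of them reached a score of 10 in some list, against 20.4% of the pairs of those other baits. At like scores from 7 on recurrence was lower than for other protein-coding baits, and between 7 and 10 its interval overlapped those of the other receptor baits. Of pairs that reached 10, 39 of 63 Olfr pairs (61.9%, 49.6 to 72.9) were in all 4 lists, against 90.5% (89.4 to 91.5) for other protein-coding baits, 78.2% (73.4 to 82.3) for Olfr baits elsewhere and 84.8% (69.1 to 93.3) for vomeronasal receptor baits. Between 7 and 10 it was 41 of 210 (19.5%, 14.7 to 25.4) against 42.7% (41.2 to 44.3), 26.0% (22.6 to 29.8) and 22.2% (13.7 to 33.9) in the same order. Recurrence differed with distance. Under 50 kb, 38 of 104 Olfr pairs (36.5%) were in all 4 lists, and 21 of 316 (6.65%) at 150 to 500 kb. Under 50 kb the share was 38.4% for Olfr baits elsewhere and 45.8% for other protein-coding baits of chromosome 2. At 150 to 500 kb these sets had 11.01% and 24.6%. At 50 to 150 kb Olfr pairs had 9.17%, against 30.4% and 40.99% in the same order. At 500 kb or more they had 8.78%, against 5.17% and 13.5%. The shares over all distances and by score, given above, were not matched for distance. When an end within 10 kb was taken as the same contact, 203 of 734 pairs (27.7%) recurred at all 4 timepoints. That share was not taken for other baits.

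**Figure D5:**
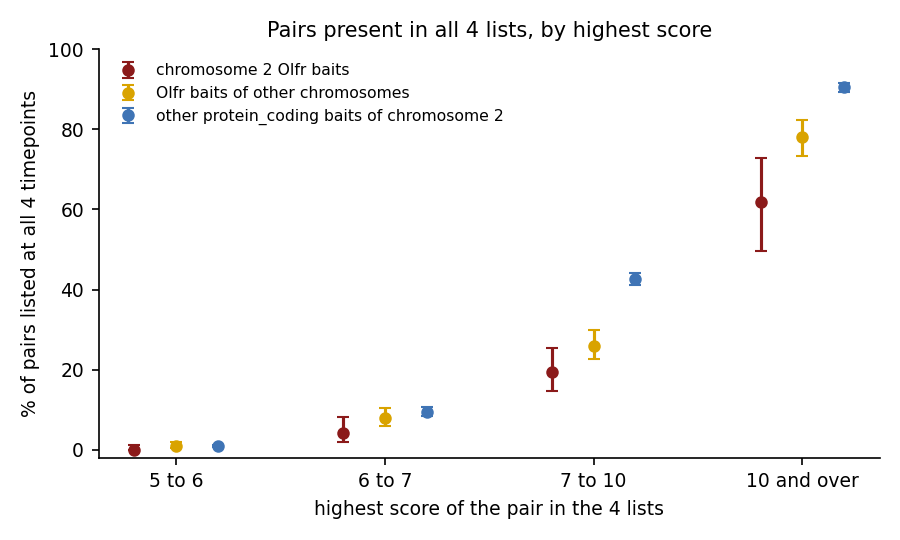
Percent of pairs listed at all 4 timepoints (vertical axis) by the highest score of the pair in any list (horizontal axis), with 95% Wilson intervals. From a score of 7 on, chromosome 2 Olfr pairs lie below the pairs of other protein-coding baits of chromosome 2, at 61.9% against 90.5% in the top class.

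Genes that work with the receptors in sensory neurons were examined as well. Of 24 such genes, 20 started on a listed bait, with a median of 6 distinct contacts and a range of 1 to 51. None was paired with a chromosome 2 Olfr bait. That absence says little about these genes. Of those with a bait, all but Lhx2 and Ebf4 lie on other chromosomes, and 0.0801% of all listed pairs joined chromosomes. Rtp1, which helps receptors reach the cell surface, had 28 contacts at ZT0, the lowest of its 4 values, and 36, 31 and 32 afterwards. Cnga4, a subunit of the olfactory cyclic nucleotide-gated channel, had 39, 25, 26 and 25. Lhx2, a homeodomain factor of receptor choice that also lies on chromosome 2, had 4, 5, 2 and 5, and Adcy3, the adenylyl cyclase of the pathway, had 1 contact, at ZT6. The 20 baits summed to 149, 152, 146 and 143 contacts in the order of the timepoints. For reference, 9 hepatocyte genes with a listed bait, of which Apoa1 and Apoc3 share theirs, had a median of 21 contacts.

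RefSeq promoter windows (GRCm38.p6, 250 bases before to 50 after the start) matched 120 member genes with 121 windows. Windows were searched on both strands for 3 motifs. The Olf/Ebf core CCCNNGGG was in 1 member window (0.826%) and in 13.7% of all 32851 windows. The homeodomain core TAATTA was in 36 (29.8%, against 5.29% of all) and the TATA box TATAAA in 51 (42.1%, against 13.6%). The member windows had a median GC content of 33%, against 52.7% for all windows. Whether the RefSeq starts are coding starts was not checked, and a match is a description of letters and not a site.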

How the data were processed

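Per the study's methods, the authors mapped and filtered read pairs with HiCUP on mm9 and called pairs with CHiCAGO, and the deposited lists give for each timepoint the fragment pairs and their CHiCAGO score of at least 5, with pools merged. Reads per pair were not used here, so depth is known only as the number of listed pairs, and a fragment without a pair may be unprobed or below the score. Pairs were read as unordered, and 129886 of 129887 listed fragments matched a HindIII digest of mm9. Gene starts were placed by GENCODE vM1 in Python 3.11.15. Intervals (Wilson, exact Poisson, exact binomial; for medians by order statistics) came from scipy 1.17.1, and shared sequence from BLASTN 2.17.0. The functions were tested on simulated data.

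The members, gene lists and comparisons were chosen with earlier results of these data known. The text names the 10 baits with most contacts, the 5 pairs of highest mean score between Olfr baits and with a non-bait end, the edge baits of each cluster, the largest differences between timepoints and the partner genes of at least 3 Olfr baits. The bins of 50 kb, the classes of GC content and the ratio of timepoints were added after seeing the data.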

Additional observations from a re-analysis of the deposited data

How the results depend on the processing

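No paired analysis was possible because each list merges its pools, and for the same reason no pool could be left out. Of 56 alternative values, 29 stayed within the interval of the reported value, or within 1.5 times a count, and 27 moved. At a score of at least 7 the Olfr pairs from ZT0 to ZT18 were 128, 146, 98 and 100, and at 10 they were 26, 33, 23 and 26. The share listed at all 4 timepoints was 27.7% with other ends within 10 kb and 9.20% without the 10 baits that have most contacts. The share inside a cluster was 97.8% at a score of 7 and 93.7% at 10. The share that joined Olfr baits was 64.1% at 7, 58.7% at 10 and 45.8% with baits of the same timepoint. The median distance was 392 kb at 10. The median contacts of Olfr baits were 2 at 7 and 0 at 10, and those of all baits 3 and 1. With at least 20 contacts, 2 baits were higher at ZT0 than ZT12 and 1 at ZT6 than ZT18. In the order of the study's summary, 4 were higher at ZT0 than ZT12, 0 at ZT6 and 5 at ZT18. The share over all baits was taken neither at 20 contacts nor in that order. Whether these counts exceed it is therefore not known. The ratio of ZT12 and ZT18 to ZT0 and ZT6 over 150 kb, chosen after seeing the data, was 0.531 at a score of 10 and 1.03 in that order, and between 0.644 and 0.665 without each list in turn. Without Olfr1052 it was 0.624. The cause of these moves was not tested. No pair had ends of near-identical sequence, so leaving such pairs out changed no value. The number of listed pairs, 23 to 33 per timepoint from a score of 10, limits what the strongest pairs can show.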
